A study of Homo sapiens with 6 samples.

Results

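GATA1, GATA2, ZFPM1, TAL1, LMO2, LYL1, GFI1B and NFE2 are transcription factors and cofactors of the erythroid and megakaryocytic programs, and their RNA levels were examined in NB4 cells with and without ARID1A targeting. The 8 genes were listed by name and no measured value entered the rule, although earlier results of these samples were known when the list was made. They are 8 of 52992 genes to which transcript estimates were summed, and all were among the 18514 genes that passed the filter on low counts. NB4 is an established human acute promyelocytic leukemia line, and every sample carried a Cas9 vector marked with mCherry and a doxycycline-inducible sgRNA vector marked with GFP. The 3 groups, each with 2 RNA-sequencing samples, were LacZ (control sgRNA against a bacterial gene, labelled WT), sg1 and sg5 (sgRNAs against ARID1A, labelled ARID1A-deficient). All groups, controls included, received doxycycline at 1 µg/ml for 7 days and were then kept without it before RNA extraction, and per the study's methods the cells were sorted as double-positive pools, so a group is a mixture of edited cells and not a clone. The labels do not say whether the 2 samples of a group came from separate cultures, so p-values measure only the spread between these samples, which may be technical.

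GATA1 and GATA2 are zinc finger factors that bind GATA motifs; GATA2 is known for its role in stem and progenitor cells and mast cells, and GATA1 for driving erythroid, megakaryocytic, eosinophil and mast cell differentiation. ZFPM1 (FOG1) is the cofactor that binds the amino-terminal finger of GATA1. TAL1 and its relative LYL1 are basic helix-loop-helix factors that bind E-boxes, LMO2 is the adaptor that bridges TAL1 or LYL1 to GATA factors, GFI1B is a zinc finger repressor that recruits LSD1 and CoREST, and NFE2 is the basic leucine zipper subunit that pairs with small MAF proteins to switch on late megakaryocytic and erythroid genes. ARID1A is a subunit of the BAF (SWI/SNF) chromatin remodeling complex.

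The libraries held 46131178 to 54843745 estimated counts. ARID1A RNA was 155 and 191 CPM (estimated counts relative to library size, scaled for composition) in the LacZ samples, 211 and 191 CPM with sg1 and 124 and 145 CPM with sg5. Its level in sg1 was therefore not below LacZ (log2 fold change 0.22 ± 0.14 SE, adjusted p = 0.993, edgeR quasi-likelihood test), and in sg5 it was -0.36 ± 0.14 (adjusted p = 0.661, edgeR); RNA level does not report an edit in coding sequence, so the groups are used as labelled. The first principal component over all tested genes, with 34.4% of the variance, set sg1 replicate 1 (34.3) and sg5 replicate 2 (46.8) apart from the other 4 samples (-30.3 to -11.3), and each factor is given with and without these 2 libraries. The fit without them had 1 residual degree of freedom, from the 2 LacZ samples, beside a prior of 2004 pooled over genes. Its tests thus rest almost wholly on a spread shared between genes, so only its fitted values are given for each factor. Markers of promyelocytes, led by MPO, summed to 16547 and 18647 CPM in LacZ, 16141 and 17206 CPM with sg1 and 14932 and 16041 CPM with sg5. Of the 8 markers 7 were tested, 0 were called and 7 had a joined log2 fold change below 0 (median -0.17), the primary granule genes CTSG (-0.52, adjusted p = 0.265, edgeR) and AZU1 (-0.35, adjusted p = 0.349, edgeR) being the 2 lower at an unadjusted p under 0.05. The neutrophil elastase gene ELANE, a defining promyelocyte marker, held at most 9 counts. Summed T cell markers were 5.10 and 5.81 CPM in LacZ and 6.69 to 7.58 CPM in the ARID1A-deficient samples, mainly CD3D (0.38, adjusted p = 0.696, edgeR), and endothelial markers were at 0.535 to 1.15 CPM with KDR at 0. Epithelial markers held 11.8 to 13.9 CPM, almost all EPCAM, with KRT19 at 0, and stromal markers 1.42 to 3.36 CPM. Summed B cell markers were 5.71 and 7.01 CPM in LacZ against 9.89 to 11.9 CPM in the ARID1A-deficient samples, mainly CD79A (log2 fold change 0.87, adjusted p = 0.203, edgeR). The stem cell markers CD34 and PROM1 together did not exceed 0.119 CPM. The part of these differences in the results on the 8 genes was not tested.

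The 8 factors covered a wide range of levels per transcript length. In LacZ, LYL1 was the most abundant at 196 ± 23 TPM (a level scaled for transcript length and library size; SD, n = 2), above 96.6% of the tested genes. LMO2 followed at 56.2 ± 3.2 TPM and NFE2 at 46.1 ± 2.8 TPM. The GATA factors themselves were far lower: GATA2 stood at 13.5 ± 0.11 TPM, and GATA1 at 1.66 ± 0.24 TPM. The remaining factors were ZFPM1 at 4.87 ± 0.29 TPM, GFI1B at 1.21 ± 0.024 TPM and TAL1 at 0.424 ± 0.045 TPM, the last above only 13.2% of the tested genes. No neighbours in this order overlapped in LacZ, whereas over all 6 samples the ranges of LMO2 (47.6 to 58.5 TPM) and NFE2 (39.0 to 48.1 TPM) overlapped, as did those of GATA1 (0.419 to 1.83 TPM) and GFI1B (0.86 to 3.14 TPM). NB4 RNA was thus rich in LYL1, LMO2 and NFE2 and poor in GATA1, GFI1B and TAL1.

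**Figure D1:**
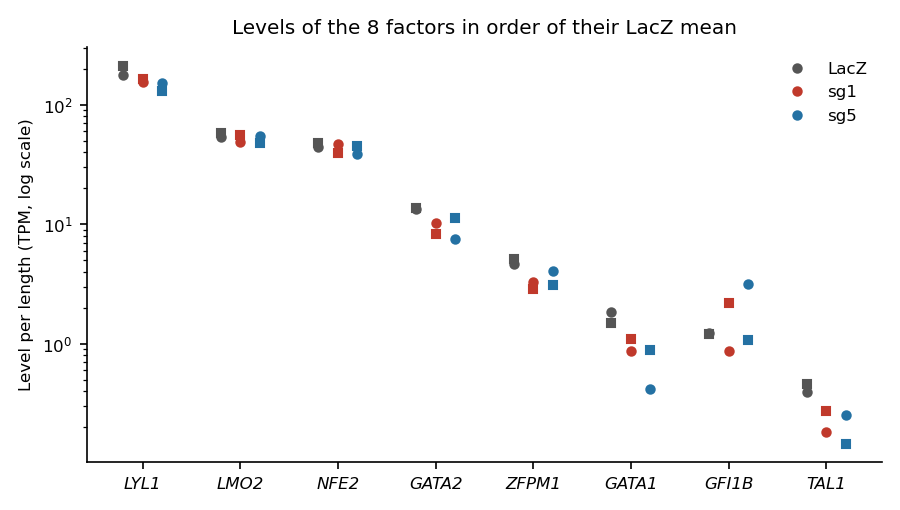
Level per transcript length (TPM, logarithmic axis) of each factor in the 6 NB4 samples, ordered by the LacZ mean; circles are replicate 1, squares replicate 2, and colors mark LacZ, sg1 and sg5. LYL1 lies between 130 and 212 TPM and TAL1 between 0.146 and 0.455 TPM.

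Promoter sequence was available from RefSeq (GRCh38.p14) for 6 of the 8 genes in 9 start-site windows; LMO2 and NFE2 were not among them. The 250 bases before each start were searched on both strands for the GATA-factor motif, written as AGATAA (or with a final G, AGATAG) and as TGATAA (or with a final G, TGATAG), and for the E-box CANNTG. A GATA motif lay in 3 of the 9 windows (1 each of LYL1, TAL1 and GFI1B), against 22.3% of 35116 promoters in the table, and an E-box in 4 of 9, against 61.8%. None of the 3 GATA matches overlapped an E-box. Shown are the windows of 4 factors whose RNA values are contrasted below, each 5′ to 3′ on the gene's strand with a GATA motif, read on either strand, in capitals: GATA1 (chrX:48786340-48786589, plus strand), the GATA2 start at the leading transcript GATA2-201 (chr3:128493202-128493451, minus strand), LYL1 (chr19:13102859-13103108, minus strand) and the GFI1B start at GFI1B-202 (chr9:132978444-132978693, plus strand).
GATA1: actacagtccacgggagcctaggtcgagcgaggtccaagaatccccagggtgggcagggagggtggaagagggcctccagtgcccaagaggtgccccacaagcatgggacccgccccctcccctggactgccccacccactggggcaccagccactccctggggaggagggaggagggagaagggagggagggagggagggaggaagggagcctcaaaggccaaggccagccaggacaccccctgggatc
GATA2: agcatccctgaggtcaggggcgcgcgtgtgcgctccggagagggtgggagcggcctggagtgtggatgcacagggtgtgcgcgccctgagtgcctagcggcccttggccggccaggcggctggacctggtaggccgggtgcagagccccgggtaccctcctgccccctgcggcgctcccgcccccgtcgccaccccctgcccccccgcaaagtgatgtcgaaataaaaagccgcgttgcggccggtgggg
LYL1: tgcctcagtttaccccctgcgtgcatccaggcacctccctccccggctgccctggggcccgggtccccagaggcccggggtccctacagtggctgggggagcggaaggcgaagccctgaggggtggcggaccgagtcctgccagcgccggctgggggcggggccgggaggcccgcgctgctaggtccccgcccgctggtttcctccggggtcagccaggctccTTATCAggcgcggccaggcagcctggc
GFI1B: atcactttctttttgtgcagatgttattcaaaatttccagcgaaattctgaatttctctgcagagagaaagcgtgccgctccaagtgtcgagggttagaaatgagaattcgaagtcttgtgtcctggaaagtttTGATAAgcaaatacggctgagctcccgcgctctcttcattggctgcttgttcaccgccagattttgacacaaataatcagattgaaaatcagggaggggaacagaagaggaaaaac
The LYL1 window held TTATCA, the reverse complement of TGATAA, 27 bases before the start, and the GFI1B window held TGATAA 116 bases before it. The third match, TTATCT in a TAL1 window (chr1:47232336-47232585, minus strand), lay 35 bases before its start. The transcript nearest that start, TAL1-204, began 115 bases away and had no counts in any sample. The window at the leading transcript TAL1-202 held no GATA motif. The GATA1 and GATA2 windows shown held neither motif. A match is a description of letters and does not identify a bound site, and a window without one says only that these letters are not in those 250 bases.

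Whether ARID1A targeting changed these factors was asked with each sgRNA against LacZ, with both sgRNAs joined, and between the sgRNAs. None of the 8 genes passed the threshold of FDR 0.1 in any of the 4 comparisons by edgeR. Among all tested genes that threshold called 0.0378% with sg1, 0.0972% with sg5, 0.167% with both joined and 0.0054% between the sgRNAs. At an unadjusted p under 0.05 the edgeR counts were 2 of 8 with sg1 (4.15% of all tested genes, 2.3% lower), 4 of 8 with sg5 (7.47%, 4.52% lower), 4 of 8 joined (7.21%, 4.32% lower) and 0 of 8 between the sgRNAs (1.38%), and every member counted was in the lower direction. The 2 with sg1 were GATA2 and TAL1, and the 4 with sg5 and the 4 joined were GATA1, GATA2, TAL1 and LYL1. DESeq2 also called none at FDR 0.1, with 1, 4, 5 and 0 at an unadjusted p under 0.05. Among the 32983 genes of that fit, which had no filter on low counts, 676, 1266, 1211 and 185 were under 0.05. In 5 of the 8 genes (GATA1, GATA2, ZFPM1, TAL1 and LYL1) all 4 ARID1A-deficient samples lay below both LacZ samples, against 10.4% of all tested genes, and the same 5 did so in TPM and with upper quartile or RLE scaling. The median joined log2 fold change of the 8 was -0.40, and that of all tested genes was -0.0071. The 2 sgRNA comparisons share the LacZ samples, so their like direction is not independent. In these bulk samples, fewer cells expressing a factor and less RNA per cell cannot be told apart.

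**Figure D2:**
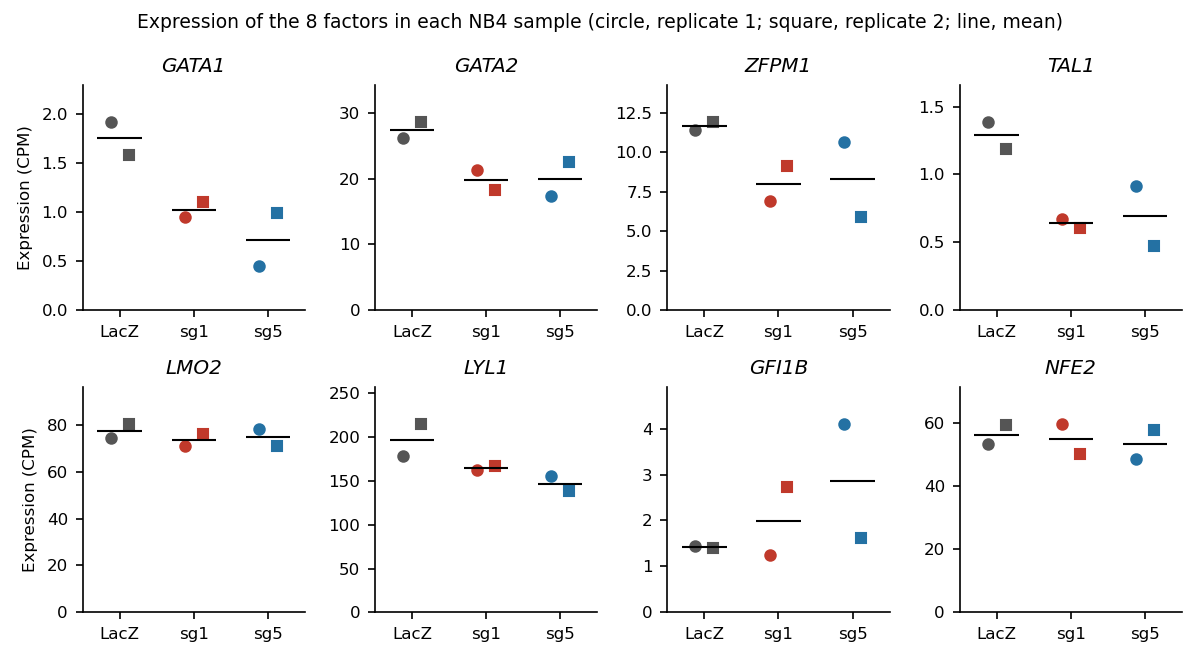
Expression (CPM, axes from 0) of each factor in every sample; circles are replicate 1, squares replicate 2, and the black line is the mean of the 2. The ARID1A-deficient samples lie below both LacZ samples for GATA1, GATA2, ZFPM1, TAL1 and LYL1 and overlap them for LMO2, GFI1B and NFE2.

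GATA1 (ENSG00000102145, chrX:48786554-48794311, GRCh38) was represented by few counts, 101 and 80 for LacZ, 48 and 49 for sg1 and 21 and 50 for sg5. In CPM the LacZ samples were at 1.92 and 1.59, the sg1 samples at 0.949 and 1.10, and the sg5 samples at 0.448 and 0.989. Both LacZ samples were above every ARID1A-deficient sample, and sg5 replicate 1 was the lowest. The log2 fold change was -0.77 ± 0.38 (SE) with sg1, -1.28 ± 0.39 with sg5 and -1.03 ± 0.32 joined, or 0.491 times the LacZ level, and the joined adjusted p was 0.482 (edgeR). Without the 2 libraries set apart on the first component, the joined value was -1.32. The sg5 value ran from -1.97 without sg5 replicate 2 to -0.81 without sg5 replicate 1.

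GATA2 (ENSG00000179348, chr3:128479427-128493185, GRCh38) measured 26.2 and 28.6 CPM in the controls, 21.3 and 18.2 CPM with sg1 and 17.3 and 22.5 CPM with sg5. The groups with and without ARID1A targeting did not overlap, and the 2 libraries set apart held the higher values of their groups. The log2 fold change was nearly the same with both sgRNAs, -0.47 ± 0.16 (SE) with sg1 and -0.46 ± 0.16 with sg5. Joined it was -0.47 ± 0.14, or 0.724 times LacZ, which had the smallest adjusted p of the 8 factors without passing the threshold (0.444, edgeR). Without the 2 libraries the joined value was -0.62. The sg5 value depended on a single library, at -0.26 without sg5 replicate 1 and -0.67 without sg5 replicate 2. The antisense gene GATA2-AS1 overlaps GATA2 and held 6 to 25 counts, against 809 to 1442 for GATA2; the counting was not stated to use strand.

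ZFPM1 (ENSG00000179588, chr16:88453317-88537016, GRCh38), the GATA1 cofactor, measured 11.4 and 11.9 CPM under LacZ, against 6.92 and 9.11 CPM under sg1 and 10.7 and 5.89 CPM under sg5. All ARID1A-deficient samples were below LacZ, but sg5 replicate 1 was close to it, and the 2 libraries set apart were the lowest. The joined log2 fold change was -0.52 ± 0.23 (SE; adjusted p = 0.703, edgeR). Without the 2 libraries set apart it was -0.24. The sg5 value was -0.13 without sg5 replicate 2 alone and -0.97 without sg5 replicate 1, beside -0.49 with both. Leaving out 1 sample at a time moved the joined value between -0.75 (without sg5 replicate 1) and -0.34 (without sg5 replicate 2).

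TAL1 (ENSG00000162367, chr1:47216290-47232220, GRCh38) was the scarcest factor, the 2 LacZ samples holding 73 and 60 counts, those of sg1 34 and 27, and those of sg5 43 and 24. The LacZ samples stood at 1.39 and 1.19 CPM, those of sg1 at 0.672 and 0.608 CPM and those of sg5 at 0.916 and 0.475 CPM. No ARID1A-deficient sample reached the lower LacZ value. The log2 fold change was -1.01 ± 0.38 (SE) with sg1, -0.89 ± 0.38 with sg5 and -0.95 ± 0.32 joined, or 0.518 times LacZ, and the joined adjusted p was 0.522 (edgeR). Without the 2 libraries set apart the joined value was -0.79. The sg5 value was -1.42 without sg5 replicate 1 and -0.50 without sg5 replicate 2. On the log2(TPM + 0.5) scale, which understates changes of low genes, the joined value was -0.38. An antisense gene at the locus, AL135960.1, held 6 and 3 counts in LacZ and at most 1 in the other samples, and reads of the 2 strands cannot be told apart.

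LYL1 (ENSG00000104903, chr19:13099033-13103161, GRCh38), the TAL1 relative that dominated the family, measured 178 and 215 CPM with the LacZ guide, 162 and 167 CPM with sg1 and 155 and 139 CPM with sg5. The groups did not overlap, but the gap between the lower LacZ sample and the higher sg1 sample was smaller than that between the 2 LacZ samples. The log2 fold change was -0.25 ± 0.13 (SE) with sg1, -0.42 ± 0.13 with sg5 and -0.34 ± 0.11 joined, or 0.793 times LacZ (joined adjusted p = 0.522, edgeR). Without LacZ replicate 2, the higher control, it was -0.19 joined and -0.11 with sg1, and without LacZ replicate 1 it was -0.46 and -0.38. Without the 2 libraries set apart it was -0.28 joined. The 2 libraries set apart did not differ in one direction from the other ARID1A-deficient samples for LYL1, TAL1 or GATA1.

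LMO2 (ENSG00000135363, chr11:33858576-33892289, GRCh38), the adaptor, measured 74.3 and 80.2 CPM in the control samples, 71.0 and 76.2 CPM with sg1 and 78.3 and 71.0 CPM with sg5. The groups overlapped, and the joined log2 fold change was -0.06 ± 0.10 (SE; adjusted p = 0.899, edgeR). NFE2 (ENSG00000123405, chr12:54292111-54301121, GRCh38) measured 53.2 and 59.2 CPM in the controls, 59.5 and 50.1 CPM with sg1 and 48.7 and 57.6 CPM with sg5. These groups overlapped too, with a joined log2 fold change of -0.06 ± 0.12 (SE; adjusted p = 0.924, edgeR). The joined NFE2 value turned to as much as 0.025 when a single sample was left out. Without the 2 libraries set apart the joined LMO2 value turned to 0.00089 and NFE2 was at -0.19, so no direction is given for either.

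GFI1B (ENSG00000165702, chr9:132944000-132991687, GRCh38) was the only one of the 8 with a positive fitted value. The LacZ samples held 76 and 71 counts (1.44 and 1.41 CPM), the sg1 samples 63 and 121 (1.25 and 2.72 CPM) and the sg5 samples 192 and 82 (4.09 and 1.62 CPM). The 2 libraries set apart lay at or near the LacZ level, while sg1 replicate 2 and sg5 replicate 1 were above it. The log2 fold change was 0.47 ± 0.49 (SE) with sg1, 1.00 ± 0.49 with sg5 and 0.74 ± 0.43 joined (adjusted p = 0.744, edgeR). Without the 2 libraries it was 1.23 joined. Without sg1 replicate 2 the sg1 value turned to -0.18 and the joined value was 0.41, and without sg5 replicate 1 the sg5 value was 0.20 and the joined value 0.34. On the log2(TPM + 0.5) scale the joined value was 0.32. TSC1 overlaps GFI1B on the opposite strand with 2532 to 3016 counts and a joined log2 fold change of 0.03.

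**Figure D3:**
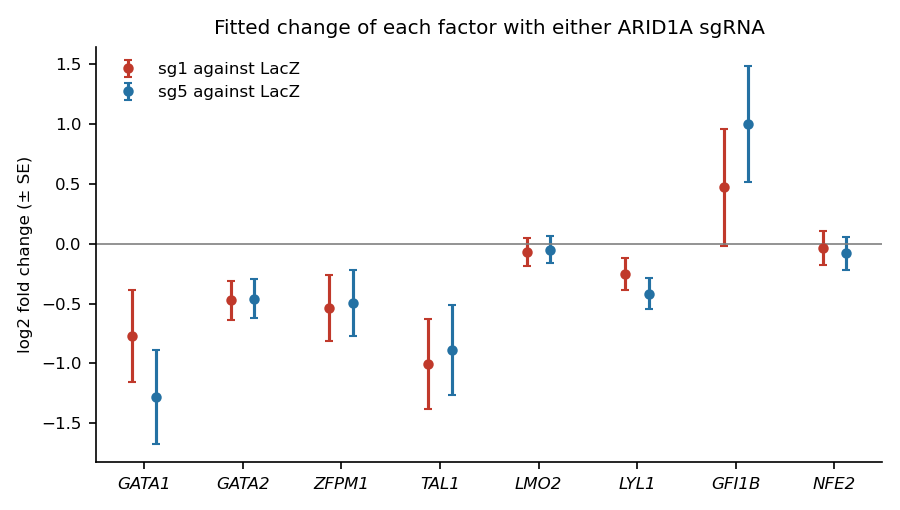
Fitted log2 fold change of each factor with sg1 and with sg5 against LacZ; bars are 1 standard error on either side from the edgeR fit to all 6 samples. Values run from -1.28 (GATA1, sg5) to 1.00 (GFI1B, sg5), LMO2 and NFE2 lie near 0, and none passed FDR 0.1.

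The sgRNAs were also compared directly. The sg1 minus sg5 log2 difference ranged over the 8 factors from -0.53 ± 0.48 (SE) for GFI1B to 0.51 ± 0.40 for GATA1, and every adjusted p was 1 (edgeR). The standard errors of GATA1, TAL1 and GFI1B between the sgRNAs (0.39 to 0.48) leave differences of that size undetectable. These genes held 21 to 192 counts, and what set their standard errors was not tested. Relative to the other ARID1A-deficient samples, the 2 libraries set apart were both higher for GATA2 and NFE2 and both lower for ZFPM1, LMO2 and GFI1B, which occurred for 25.0% and 27.7% of all tested genes.

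The transcript makeup of the factors was read from the same files. For 5 of the 8 genes 1 transcript held most of the gene's TPM in every sample: GATA1-202 held 75.7 to 100%, GATA2-201 59.6 to 82.4%, LMO2-201 54.3 to 61.1%, LYL1-201 82.5 to 84.7% and NFE2-202 82.9 to 88.2%. The leading transcripts of ZFPM1 (ZFPM1-201, 40.2 to 74.1%), TAL1 (TAL1-202, 42.8 to 100%) and GFI1B (GFI1B-202, 40.1 to 88.9%) varied most. The longer transcript GATA1-202 was the only GATA1 transcript with counts in 5 of the 6 samples, and GATA1-201 held 9.28 estimated counts in sg1 replicate 2. In LMO2, whose total overlapped between the groups, the share of LMO2-202, whose first exon lies inside the gene, was 21.7 and 17.7% for LacZ, 15.1 and 17.4% for sg1 and 13.2 and 4.88% for sg5. The retained-intron transcript LMO2-204 held 7.65 and 7.81% for LacZ, 12.2 and 13.3% for sg1 and 11.7 and 11.3% for sg5. Neither LMO2 share overlapped between LacZ and the ARID1A-deficient samples, but for LMO2-202 the gap was small, 17.7% in LacZ replicate 2 against 17.4% in sg1 replicate 2. In sg5 replicate 2, where LMO2-202 was lowest, LMO2-203 held 18.6%, against 3.87 to 8.26% in the other samples. How often the shares of other transcripts fail to overlap is not given here. Reads common to several transcripts were divided by a model and the shares were not tested.

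**Figure D4:**
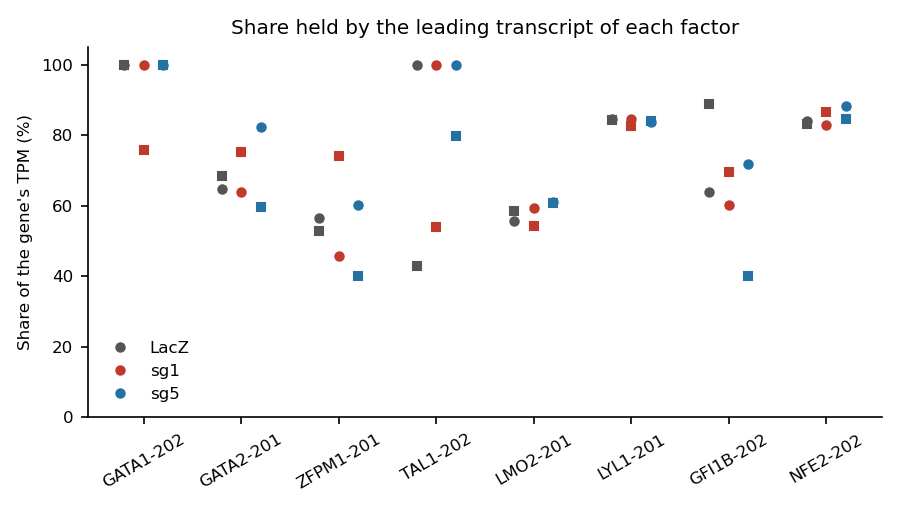
Share of the gene's TPM (%) held by the leading transcript of each factor in every sample; circles are replicate 1, squares replicate 2, colors mark the groups. LYL1-201 stays within 82.5 to 84.7%, while TAL1-202 runs from 42.8 to 100%.

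Of the other members of the GATA and FOG families, ZFPM2 and GATA6 were tested and neither was called. GATA3, GATA4 and GATA5 held at most 1 count in any sample. GATA6 had 25 counts in either control, 6 and 7 with sg1, and 0 and 4 with sg5, with no overlap between groups and a joined log2 fold change of -2.65 ± 0.63 (SE) that did not pass (adjusted p = 0.305, edgeR). ZFPM2, the paralog of ZFPM1, held 39 to 68 counts and a mean of 1.07 TPM over the 6 samples, beside 1.10 TPM for GATA1, with overlapping groups and a joined log2 fold change of -0.24 (adjusted p = 0.846, edgeR).

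Partners of the factors did not pass the test. Of 25 partner and co-regulator genes, 24 were tested and 0 were called in any comparison, 2 were lower at an unadjusted p under 0.05 in the joined comparison (4.32% of all tested genes), and the median joined log2 fold change was -0.06. Those 2 were RCOR1, the CoREST scaffold recruited by GFI1B (91.4 and 125 CPM in LacZ, 54.9 to 90.1 CPM in the ARID1A-deficient samples, -0.60, adjusted p = 0.363, edgeR), and GFI1, the myeloid paralog of GFI1B (185 and 219 CPM against 129 to 167 CPM, -0.43, adjusted p = 0.363, edgeR). The most abundant partners, MYB and SPI1, were at 0.01 and -0.03. Of the 24, 15 had a joined value below 0 and 9 above 0. The highest was 1.90, in a gene under the mean of 1 CPM that naming by change required. KLF1, the erythroid partner of GATA1, was too low to test.

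Among erythroid genes, 24 of 39 were tested and 0 were called in any comparison, with 2 lower at an unadjusted p under 0.05 (SPTB and CA2, against 4.32% of all tested genes) and a median joined log2 fold change of -0.04. Of the 8 globin genes, 7 had no counts in any sample and HBG2 at most 2. ALAS2, the erythroid heme synthesis enzyme, held at most 5 counts. Carbonic anhydrase CA2 was at 23.8 and 21.4 CPM in LacZ and at 14.5 to 16.4 CPM in the ARID1A-deficient samples, without overlap (-0.57 ± 0.12 SE, adjusted p = 0.201, edgeR). The beta-spectrin gene SPTB was at -0.69 (adjusted p = 0.652, edgeR), and the transferrin receptor TFRC at 0.37 (adjusted p = 0.758, edgeR).

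Among megakaryocyte and platelet genes, 17 of 28 were tested and 1 was called, against 0.167% of all tested genes. ITGA2B, the integrin chain of the platelet fibrinogen receptor (CD41) and a textbook GATA1 target, was 16.3 and 12.3 CPM in the controls, 3.42 and 3.22 CPM with sg1 and 3.67 and 2.99 CPM with sg5. It fell by 2.10 on the log2 scale (SE 0.18, adjusted p = 0.00717, edgeR), and was lower in each sgRNA comparison (adjusted p = 0.0322 with sg1 and 0.0258 with sg5, edgeR). Its partner chain ITGB3 held at most 4 counts, and PF4 had none. At an unadjusted p under 0.05, 6 of the 17 were lower (4.32% of all tested genes) and 0 higher, and the median joined log2 fold change was -0.32. Of the 17, 11 had a joined value below 0 and 6 above 0. The highest was 2.21, in a gene under the mean of 1 CPM that naming by change required. GP1BB had a joined value of -2.30, but its samples ran from 5.35 and 7.56 CPM in the controls through 8.72 and 2.97 CPM with sg1 to 0.597 and 0 CPM with sg5, it shares its exons with the read-through gene SEPT5-GP1BB so that its counts are uncertain, the groups overlapped and it did not pass (adjusted p = 0.687, edgeR). The prostaglandin synthase PTGS1 was at -0.50 (adjusted p = 0.458) and thromboxane synthase TBXAS1 at -0.09 (adjusted p = 0.858, edgeR).

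Among eosinophil, mast cell and basophil genes, a set in which GATA factors are known regulators, 11 of 18 were tested and 3 were called in the joined comparison, all lower, against 0.167% of all tested genes called. PRG2, the eosinophil granule major basic protein, was 62.9 and 71.8 CPM in the controls, 26.1 and 20.5 CPM with sg1 and 23.2 and 21.9 CPM with sg5 (it overlaps the gene AP000781.2 on the same strand; fell by 1.55 on the log2 scale, adjusted p = 0.00634, edgeR). HDC, the histamine-forming enzyme, was 20.7 and 20.3 CPM in LacZ and 7.80 to 8.89 CPM in the ARID1A-deficient samples (fell by 1.26, adjusted p = 0.0182, edgeR). Eosinophil peroxidase, EPX, was 6.34 and 6.07 CPM in LacZ and 1.33 to 2.16 CPM in the ARID1A-deficient samples (fell by 1.86, adjusted p = 0.0182, edgeR). PRG2 and HDC were also called with sg1 alone, and all 3 with sg5 alone. RNASE2, another eosinophil granule protein that promyelocytic cells also make, went the other way in value, 223 and 191 CPM in LacZ against 269 to 393 CPM, without passing (0.67, adjusted p = 0.383, edgeR). At an unadjusted p under 0.05, 8 of the 11 were lower (4.32% of all tested genes) and 1 higher, and the median joined log2 fold change was -0.95. These genes and ITGA2B were listed with their behaviour in these samples already known, so their counts are a description and not independent support.

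**Figure D5:**
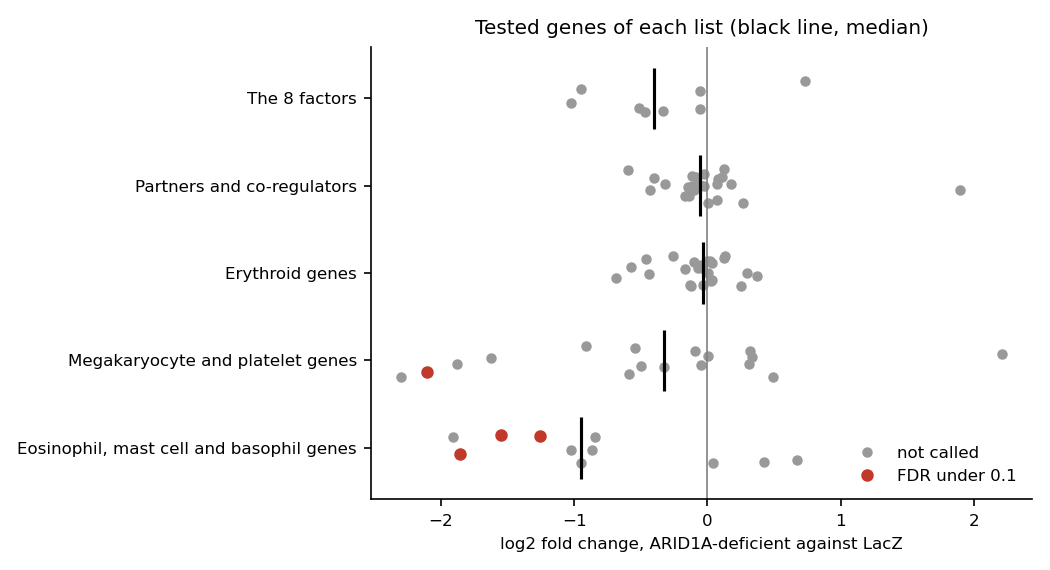
Joined log2 fold change (ARID1A-deficient against LacZ) of each tested gene of 5 lists; black lines are list medians and red points passed FDR 0.1. The median of the 8 factors is -0.40, those of the partners and erythroid genes are -0.06 and -0.04, and the 4 called genes are ITGA2B, PRG2, HDC and EPX.

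The genes whose sample pattern was most like that of the GATA factors were sought over 13164 tested genes of at least 1 CPM, by the mean absolute difference of log2 CPM centred on each gene's own mean over the 6 samples. Closest to GATA1 were LILRB1 (0.15), AP000781.2 (0.17) and CLEC4E (0.22), where the median gene differed by 0.51. AP000781.2, which overlaps PRG2 on the same strand so that shared reads are uncertain, was the only one of them called (49.1 and 46.8 CPM in LacZ, 15.9 to 24.6 CPM in the ARID1A-deficient samples, joined adjusted p = 0.0511, edgeR). Closest to GATA2 were MCAM (0.03), ADAM15 (0.05) and LGR4 (0.05), against a median of 0.27, and none of these 3 was called. Their joined log2 fold changes were -0.48, -0.46 and -0.55, beside -0.47 for GATA2. The genes nearest to GATA1 and to GATA2 were picked over these same 6 samples. Their small differences and like fold changes follow from that choice and are a description only.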

How the data were processed

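RNA of 6 NB4 samples (LacZ, sg1 and sg5, 2 each) was made into libraries by the authors with a TruSeq RNA kit, which does not mark strand, and quantified per transcript with kallisto. The submitters' processing notes also name DESeq2 and hg19, and the transcript set is not given in the sources used here. The deposited files hold estimated counts and TPM (scaled for transcript length and library size within each sample by the authors) for 196354 transcripts. Of these, 181857 (92.6%), with 95.4 to 95.5% of the estimated counts, matched GENCODE 29 (GRCh38) by transcript identifier and were summed to 52992 genes; gene coordinates are those of GENCODE 29. Sums were rounded and tested with edgeR 4.0.16 (R 4.3.3): TMM scaling, filterByExpr with a minimum count of 10, and robust quasi-likelihood tests in 1 fit to all 6 samples with group as the only term. Benjamini-Hochberg adjustment ran over all 18514 genes tested, and a gene was called at FDR 0.1. CPM values use TMM-scaled library sizes; TPM is used only for levels and transcript shares. The joined contrast set the mean of sg1 and sg5 against LacZ. The common biological coefficient of variation was 16.6%. Alternatives were DESeq2 1.42.0, limma 3.58.1 on log2(TPM + 0.5), other scalings and filters, a length offset, a replicate block and the leaving out of samples; a crossed block was chosen after seeing the data. The sample titles carry the letter E and the replicate number, and the labels do not say whether a number marks a shared experiment. After subtracting group means, samples sharing a number correlated at 0.07, 0.01 and -0.21. That gives no sign of pairing, but 2 samples per group cannot settle it. The 8 genes and all lists were chosen with earlier results of these data known. Named from each list are genes called in any contrast, the 2 with the largest joined change at a mean of at least 1 CPM and the 2 with the highest mean TPM. Outside this rule, ELANE, GATA3, GATA4, GATA5, KLF1, ALAS2, HBG2, ITGB3, PF4, and the genes overlapping a factor were named after their values were seen.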

Additional observations from a re-analysis of the deposited data

How the results depend on the processing

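Over all alternatives, 477 fitted values were set against the main fit for the 24 combinations of a factor and an sgRNA or joined comparison. Of these, 453 kept direction and side of the threshold, 12 passed the threshold that had been missed and 12 reversed, and 18 of the 24 combinations never reversed. The setting of FDR 0.05 repeats the main fit at a stricter threshold, so its 24 values and its 0 called were fixed in advance. Fold changes without robust estimation also equal those of the main fit, so the 453 overstate how far the results were tried. The number of the 8 factors called stayed at 0 in every comparison each of these settings gives, namely under DESeq2, RLE and upper quartile scaling, a minimum mean of 50 counts (where TAL1 was not tested), the length offset, no robust estimation, only the groups compared (no joined comparison), sg1 and sg5 as 1 group (joined only), FDR 0.05, limma on log2 TPM, every replicate block and every leaving out of a single sample. Without the filter on low counts it was 1 with sg5 (GATA1) and 2 joined (GATA1, adjusted p = 0.0526, and GATA2, adjusted p = 0.0727, edgeR). Of the 32983 genes tested there, 345, 632, 701 and 86 were called in the sg1, sg5, joined and sg1 against sg5 comparisons. The median prior degrees of freedom of that fit were infinite, so its tests mostly used a spread pooled over genes. Without sg1 replicate 1 and sg5 replicate 2 the number of the 8 factors called was 1 with sg1, 4 with sg5 and 4 joined. Of the 19255 genes tested there, 424, 787, 809 and 215 were called in the sg1, sg5, joined and sg1 against sg5 comparisons. That fit had 1 residual degree of freedom, from LacZ, and its tests rest almost wholly on a spread shared between genes. Its calls are therefore listed only as the outcome of that setting, and no conclusion is drawn from them. In that fit LMO2 reversed to 0.020 with sg5 and to 0.00089 joined.

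The genes called numbered 7, 18, 31 and 1 in the main fit. They were 98, 186, 230 and 5 with DESeq2, 4, 15, 19 and 0 at a mean of at least 50 counts, and 59, 157, 194 and 2 with the crossed block. They were 18 with sg1, 29 with sg5 and 0 between sgRNAs with only the groups compared, 2 between sgRNAs with the length offset, and 82 joined with sg1 and sg5 as 1 group. With the replicate block, for which it is not known that the numbers pair the samples, they were 1, 1, 3 and 0. With the block and length offset they were 1, 1, 5 and 0. The joined count was 20 with upper quartile scaling, 17 without robust estimation and 12 at FDR 0.05, which left 0 between sgRNAs; limma on log2 TPM gave 1, 9 and 4 for the first 3. Leaving out 1 sample at a time gave 1 to 33 with sg1, 0 to 78 with sg5, 3 to 193 joined and 0 to 8 between sgRNAs. The same refits gave GFI1B -0.18 to 0.93 with sg1, LMO2 -0.10 to 0.014 with sg5, and NFE2 -0.17 to 0.092 with sg1, -0.21 to 0.054 with sg5 and -0.13 to 0.025 joined. Where an arm kept 1 sample, it was assumed to vary like the other groups. The cause of these shifts was not tested. GATA1, TAL1 and GFI1B held the fewest counts of the 8 factors, 21 to 192.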
